A study of Homo sapiens with 12 samples.

Results

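The genes described here encode the chaperones of the endoplasmic reticulum (ER) built around its HSP70 protein, HSPA5 (BiP), together with the ER member of the HSP90 family, HSP90B1 (GRP94). The 10 genes are HSPA5, HSP90B1, HYOU1, SIL1, DNAJB11, DNAJB9, DNAJC3, DNAJC10, SDF2L1 and MANF. They were taken by gene name from a count table of 61209 names, and all 10 were found and passed the filter on low counts. RNA was sequenced from A375, an established human melanoma line, in 12 libraries, with 3 in each of 4 groups. The groups were OGDH KO cells starved of glucose for 5 h (OGDH KO -Glucose), control cells starved in the same way (Ctrl -Glucose), OGDH KO cells with glucose (OGDH KO) and control cells with glucose (Ctrl). The OGDH protein is the first enzyme of the complex that turns 2-oxoglutarate into succinyl-CoA in the tricarboxylic acid cycle. Titles say KO whereas the series text speaks of a knockdown, and no source used here names the guide, the clone or what the control cells received. Replicates carry only a number, and nothing says that they came from separate cultures, so p-values measure the spread between these libraries, which may be technical.

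HSPA5 binds unfolded stretches of proteins that enter the ER and releases them in a cycle driven by ATP. J-domain proteins deliver clients and stimulate ATP hydrolysis, nucleotide exchange factors let the ADP leave, and HSP90B1 takes over some of the clients for late folding. The same set is a textbook target of the unfolded protein response, in which the transcription factors ATF6 and XBP1 act through ER stress response elements in promoters, and loss of glucose is the treatment after which the glucose-regulated proteins (GRP) were named.

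Promoter windows are shown because the unfolded protein response is known to act through such elements, and their part in these data was not tested. RefSeq windows of GRCh38.p14, from 250 bases before to 50 bases after the annotated start, were matched by symbol for 10 of 10 genes. The ER stress response element (ERSE) was searched as CCAAT, 9 bases of any kind and CCACG, and ERSE-II as ATTGG, 1 base and CCACG. The unfolded protein response element core (UPRE core) was searched as TGACGTGG and the C/EBP-ATF response element (CARE) as TTGCATCA, in each case on both strands. In the sequences, which run 5′ to 3′ on the strand of the gene, capitals mark matches to ERSE, ERSE-II or the UPRE core. The windows of the 4 genes with an ERSE or ERSE-II match are followed by 1 window without such a match. It is that of SIL1, the gene with the smallest starvation response in control cells.
HSPA5: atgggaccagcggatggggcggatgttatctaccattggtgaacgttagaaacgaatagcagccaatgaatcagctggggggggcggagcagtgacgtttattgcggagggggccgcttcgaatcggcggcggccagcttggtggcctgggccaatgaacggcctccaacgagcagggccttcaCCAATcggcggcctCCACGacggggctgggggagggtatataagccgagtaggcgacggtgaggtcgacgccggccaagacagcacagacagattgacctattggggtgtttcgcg
HSP90B1: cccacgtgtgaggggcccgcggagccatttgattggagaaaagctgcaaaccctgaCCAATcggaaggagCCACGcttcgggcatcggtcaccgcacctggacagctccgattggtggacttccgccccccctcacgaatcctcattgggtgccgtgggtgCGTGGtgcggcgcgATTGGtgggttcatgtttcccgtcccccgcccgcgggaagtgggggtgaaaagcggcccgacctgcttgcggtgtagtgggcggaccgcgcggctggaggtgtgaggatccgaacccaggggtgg
HYOU1: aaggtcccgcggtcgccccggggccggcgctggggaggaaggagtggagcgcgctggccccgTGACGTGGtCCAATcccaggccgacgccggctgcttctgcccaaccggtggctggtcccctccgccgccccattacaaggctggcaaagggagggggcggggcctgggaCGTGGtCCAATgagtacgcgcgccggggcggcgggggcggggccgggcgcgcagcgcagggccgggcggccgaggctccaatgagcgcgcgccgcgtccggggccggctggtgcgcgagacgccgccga
SDF2L1: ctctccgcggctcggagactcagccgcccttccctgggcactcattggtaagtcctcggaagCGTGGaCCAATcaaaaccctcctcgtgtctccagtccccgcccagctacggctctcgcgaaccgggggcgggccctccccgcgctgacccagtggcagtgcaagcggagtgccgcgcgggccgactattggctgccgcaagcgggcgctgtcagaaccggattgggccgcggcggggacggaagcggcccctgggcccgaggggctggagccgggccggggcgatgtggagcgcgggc
SIL1: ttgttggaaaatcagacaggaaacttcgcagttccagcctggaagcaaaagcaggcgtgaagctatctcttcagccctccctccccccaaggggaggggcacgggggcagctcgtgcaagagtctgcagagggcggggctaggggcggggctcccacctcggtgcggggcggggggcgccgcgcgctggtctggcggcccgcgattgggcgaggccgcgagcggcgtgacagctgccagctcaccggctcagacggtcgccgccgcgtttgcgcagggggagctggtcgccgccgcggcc

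The HSPA5 window (chr9:125241294-125241593, minus strand) held 1 ERSE, which began 66 bases before the start. The HSP90B1 window (chr12:103930160-103930459, plus strand) held an ERSE that began 194 bases before the start and another on the opposite strand from 89 to 71 bases before it. The HYOU1 window (chr11:119057156-119057455, minus strand) held 2 ERSE-II matches on the opposite strand, from 185 to 175 and from 79 to 69 bases before the start, and the upstream match overlapped a UPRE core at 188 to 181. The SDF2L1 window (chr22:21642052-21642351, plus strand) held 1 ERSE-II on the opposite strand from 188 to 178 bases before the start. The SIL1 window (chr5:139198319-139198618, minus strand) held none of these elements. The windows of DNAJB9, DNAJC3, MANF and DNAJB11, which are not shown, also held no ERSE, ERSE-II or UPRE core. On starvation of control cells these genes had log2 fold changes of 3.31, 2.38, 2.01 and 1.96, in that order. A link between matches and responses was not tested. Windows sit at the start RefSeq gives, which lies 95189 bases inside the span of the counted gene for SIL1, 3317 for DNAJB11, 303 for HSP90B1 and at most 39 for the other 7, so the windows of SIL1 and DNAJB11 do not show the outermost start of these genes.

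Over all 35116 windows of 300 bases, 0.0769% held an ERSE, 0.0541% an ERSE-II and 0.729% a UPRE core. Among the 10 genes, 2 held an ERSE, 2 an ERSE-II and 2 a UPRE core, the second UPRE core being in DNAJC10. The CARE was found in 0 of the 10 windows and in 0.866% of all windows. The letters CCAAT alone were present in 10 of 10 windows, against 34.6% of all windows, and the letters ACGTG in 5 of 10, against 21.4%. CCAAT is part of ERSE and ERSE-II and ACGTG is part of the UPRE core, and a match of letters is a description of the window and not of binding. Across other gene lists, ERSE or ERSE-II was found in 2 of 15 matched genes for other ER J-proteins, HSP70-like and partner proteins (CRELD2 and FICD), in 4 of 14 other ER folding enzymes and lectin chaperones (CALR, CANX, ERO1B and PDIA6), in 2 of 13 unfolded protein response sensors and factors (HERPUD1 and XBP1) and in 0 of 16 cytosolic and mitochondrial HSP70 and HSP90 relatives.

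Libraries held 21556273 to 25546615 counted fragments. OGDH lay at 32.3 to 45.1 CPM (counts divided by the TMM-scaled depth) in the 6 libraries labelled KO, against 129 to 166 CPM in the 6 labelled Ctrl, which leaves 25.1% of control without glucose and 25.8% with glucose. The melanocyte lineage factors SOX10 (278 to 703 CPM), MITF (25.4 to 43.1 CPM) and PAX3 (10.3 to 15.4 CPM) were present, whereas PMEL, MLANA, TYR, DCT and S100B did not exceed 1.78 CPM in any library. The 8 melanocyte markers summed to 586 to 656 CPM in OGDH KO -Glucose, 324 to 367 CPM in Ctrl -Glucose, 642 to 751 CPM in OGDH KO and 681 to 745 CPM in Ctrl, and the part of this shift in the results was not tested. The 10 markers of other cell types summed to at most 1.96 CPM. Ctrl replicate 2, Ctrl -Glucose replicate 3 and OGDH KO -Glucose replicate 3 deviated most from their groups, and the share of mitochondrially encoded counts ran from 3.06% to 14.6%, with both low and high libraries in Ctrl -Glucose and in Ctrl.

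The first comparison concerned the response of the set to glucose withdrawal in control cells. All 10 genes rose (edgeR's quasi-likelihood test with Benjamini-Hochberg adjustment over 18526 genes, threshold 0.05). In this comparison 34.5% of all tested genes passed in either direction, 3151 of 18526 being higher. The median log2 fold change of the 10 genes was 2.22, against -0.023 over all genes. In each of the 10 genes the 3 Ctrl -Glucose libraries lay above the 3 Ctrl libraries. The share of all tested genes that separate in this way was not counted. Because these are bulk samples, more RNA per cell and more cells that express a gene cannot be told apart.

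HSPA5, the HSP70 of the ER, stood at 11307, 10839 and 12190 CPM in Ctrl -Glucose libraries 1 to 3, against 836, 752 and 807 CPM in Ctrl. The starved control libraries were all far above the others, and the rise was 14.3-fold (95% interval 12.2 to 16.8, log2 fold change 3.84, SE 0.11, adjusted p = 2.4e-09). In each Ctrl -Glucose library HSPA5 had the highest count of all genes not encoded by mitochondrial DNA, whereas it ranked 81 to 89 on the same scale in the Ctrl libraries. HSP90B1, the HSP90 of the ER, stood at 2961, 2902 and 2094 CPM in Ctrl -Glucose and at 538, 813 and 553 CPM in Ctrl. It rose 4.18-fold (log2 fold change 2.06, SE 0.20, adjusted p = 1.3e-05), with Ctrl -Glucose replicate 3 low and Ctrl replicate 2 high within their groups.

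The nucleotide exchange factors differed in size of response. HYOU1 (GRP170), a large HSP70-related protein that acts as an exchange factor for HSPA5, stood at 1882, 1806 and 1728 CPM in Ctrl -Glucose and at 344, 344 and 343 CPM in Ctrl. Its log2 fold change was 2.39 (SE 0.09, adjusted p = 1.2e-08). SIL1, the other exchange factor, stood at 26.3, 24.3 and 33.2 CPM in Ctrl -Glucose, against 18.1, 13.9 and 17.999 CPM in Ctrl. It rose by 0.75 on the log2 scale (SE 0.17, adjusted p = 0.0051), the smallest change of the 10, and it no longer passed when a change above 1.5-fold was required. Per kilobase of exon, the HYOU1 level was 38.5 ± 7.11 times that of SIL1 in Ctrl -Glucose and 12.2 ± 1.93 times in Ctrl, and 8.07 ± 1.76 times in OGDH KO -Glucose and 8.97 ± 0.630 times in OGDH KO (SD, n = 3 each). This ratio depends on the lengths used. With principal transcript lengths it was 27.6 ± 5.11 in Ctrl -Glucose and 8.77 ± 1.38 in Ctrl. In the OGDH KO groups it was then 5.79 ± 1.26 without glucose and 6.44 ± 0.452 with glucose.

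Among the J-domain proteins, DNAJB9 (ERdj4), a co-chaperone of HSPA5 known to restrain the sensor IRE1, stood at 125, 116 and 102 CPM in Ctrl -Glucose and at 9.75, 13.5 and 11.3 CPM in Ctrl. With a log2 fold change of 3.31 (SE 0.16, adjusted p = 9.8e-08) it came second after HSPA5. DNAJC3 (p58IPK), an inhibitor of the eIF2-alpha kinases that also works as an ER co-chaperone, stood at 231, 208 and 204 CPM in Ctrl -Glucose and at 39.4, 44.8 and 39.2 CPM in Ctrl, a change of 2.38 (SE 0.10). DNAJB11 (ERdj3), a soluble co-chaperone that binds unfolded clients directly, stood at 162, 148 and 151 CPM in Ctrl -Glucose and at 39.3, 40.2 and 38.8 CPM in Ctrl, a change of 1.96 (SE 0.08). DNAJC10 (ERdj5), which carries thioredoxin domains and reduces disulfides, stood at 228, 203 and 152 CPM in Ctrl -Glucose, against 77.1, 114 and 80.1 CPM in Ctrl. Its change of 1.10 (SE 0.18, adjusted p = 0.00076) was the smallest of the J-domain proteins.

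The partner proteins also rose. SDF2L1, which forms a complex with DNAJB11, stood at 34.8, 29.3 and 82.4 CPM in Ctrl -Glucose, against 11.9, 4.20 and 9.33 CPM in Ctrl. The groups did not overlap, but replicates of a group differed by more than for any other of the 10 genes, and the log2 fold change of 2.53 had an SE of 0.48 (adjusted p = 0.0017). MANF, a secreted and ER-resident protein that binds HSPA5, stood at 439, 425 and 393 CPM in Ctrl -Glucose and at 103, 107 and 101 CPM in Ctrl. Its change was 2.01 (SE 0.08, adjusted p = 2.9e-08).

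**Figure D1:**
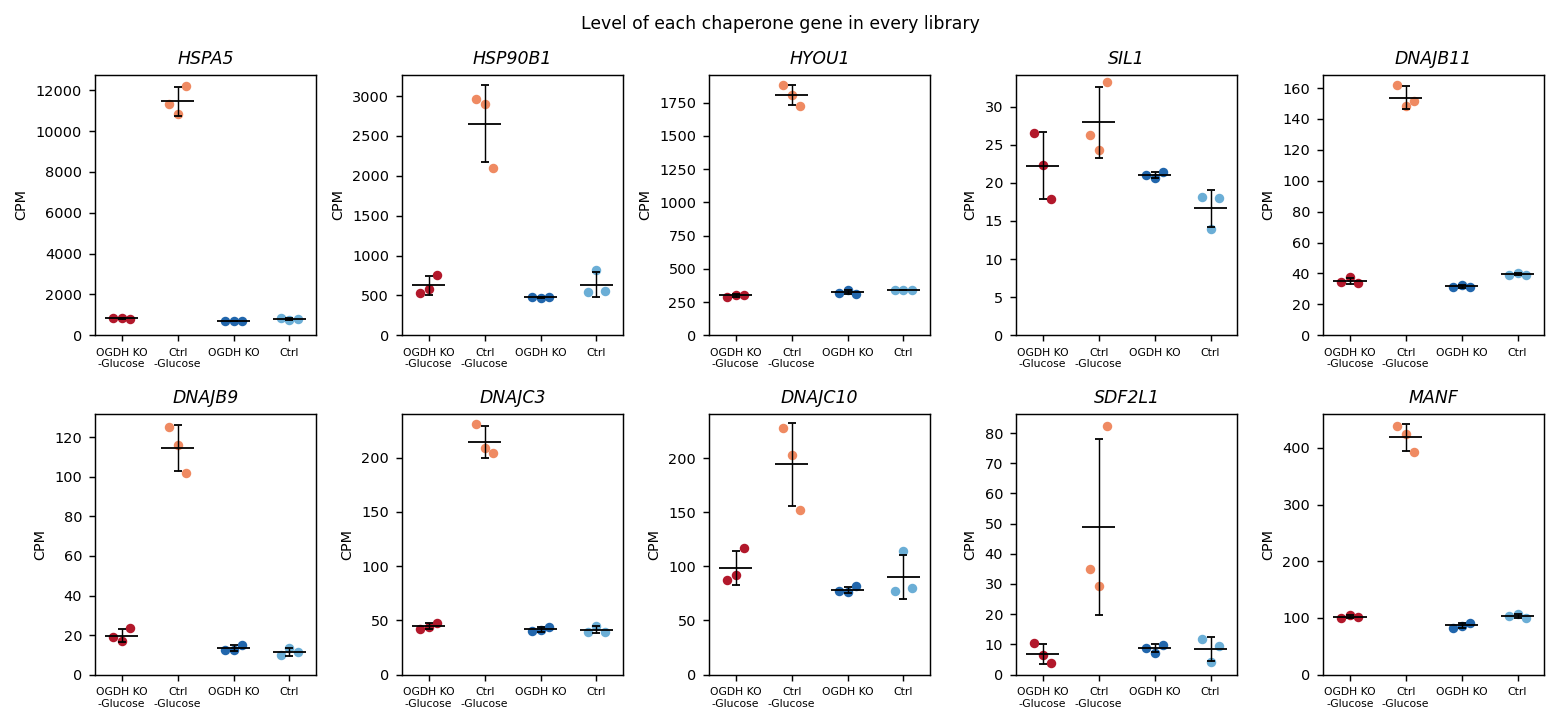
Level of each of the 10 genes in every library, in CPM on a linear axis that starts at 0; points are libraries, horizontal bars are group means and error bars are SD (n = 3). The Ctrl -Glucose libraries lie above the Ctrl libraries in all 10 panels, with HSPA5 at 10839 to 12190 CPM, and the OGDH KO -Glucose libraries lie near the groups with glucose.

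The 10 genes together took a larger share of the library in starved control cells. They held 1.48% ± 0.103 of all counted fragments in Ctrl -Glucose and 0.219% ± 0.00313 in Ctrl, against 0.213% ± 0.00211 in OGDH KO -Glucose and 0.188% ± 0.00281 in OGDH KO (SD, n = 3 each). HSPA5 alone made up 67.0% ± 3.59 of the counts of the set in Ctrl -Glucose and 38.4% ± 4.33 in Ctrl, whereas in the OGDH KO groups it made up 39.7% ± 3.48 without glucose and 38.8% ± 0.426 with glucose. Per kilobase, the ratio of HSPA5 to HSP90B1 was 8.94 ± 2.37 in Ctrl -Glucose and 2.63 ± 0.681 in Ctrl, and 2.71 ± 0.571 in OGDH KO -Glucose and 2.89 ± 0.0379 in OGDH KO. The ratio of HSPA5 to the summed J-domain proteins was 16.4 ± 2.17 in Ctrl -Glucose and 6.28 ± 0.966 in Ctrl, and 5.40 ± 0.677 in OGDH KO -Glucose and 5.47 ± 0.314 in OGDH KO. Both ratios depend on the lengths used. With principal transcript lengths the ratio to HSP90B1 was 3.26 ± 0.864 in Ctrl -Glucose and 0.960 ± 0.248 in Ctrl, and the ratio to the summed J-domain proteins was 16.2 ± 1.76 in Ctrl -Glucose and 5.21 ± 0.597 in Ctrl. In each of these measures the 3 starved control libraries lay above the other 9 libraries.

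**Figure D2:**
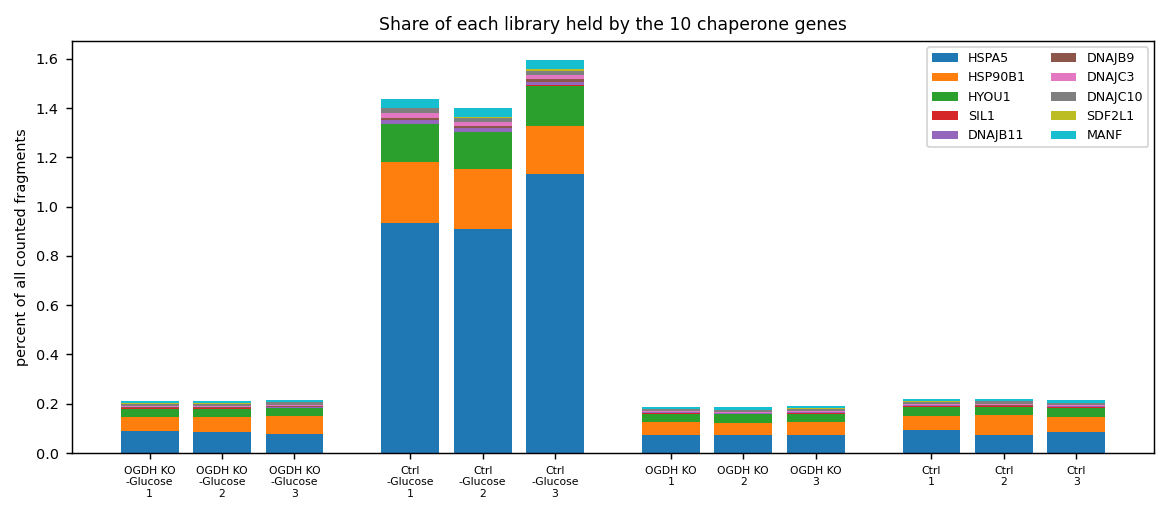
Percent of all counted fragments in each library held by the 10 genes, stacked by gene, with libraries numbered 1 to 3 within each group. The Ctrl -Glucose libraries reach 1.40% to 1.59%, with HSPA5 as the largest block, and the others stay between 0.186% and 0.221%.

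By level per kilobase of merged exon length, HSPA5 came first in all 4 groups, at 126 ± 5.02 CPM per kilobase in OGDH KO -Glucose, 1753 ± 105 in Ctrl -Glucose, 105 ± 1.03 in OGDH KO and 122 ± 6.55 in Ctrl. HYOU1, HSP90B1 and MANF took ranks 2 to 4 in every group and the other 6 genes ranks 5 to 10. HSP90B1 and MANF overlapped in OGDH KO -Glucose, Ctrl -Glucose and Ctrl, and HYOU1 and HSP90B1 overlapped in OGDH KO -Glucose and Ctrl. In Ctrl -Glucose the order after these 4 was SDF2L1, DNAJB9, DNAJC3, DNAJB11, DNAJC10 and SIL1, in which SDF2L1, DNAJB9 and DNAJC3 overlapped with each other, and DNAJC10 with SIL1. In Ctrl the range of SDF2L1 overlapped with those of all 5 genes ranked after it. The merged length overstates the transcript most for HSP90B1 (13092 bases, against 2858 for its principal transcript) and DNAJB11 (9385 against 1688). It is also the longer one for others, such as HSPA5 (6530 against 3908) and SIL1 (3977 against 1895), and the shorter one for DNAJB9 (2538 against 2715) and DNAJC3 (5590 against 5591). DNAJC10 is the longest by both lengths (25053 and 20129 bases), and its low rank per kilobase depends on them. With principal transcript lengths the mean of HSP90B1 came before that of HSPA5 in OGDH KO -Glucose and in Ctrl, but the order differed between libraries. The ratio of HSPA5 to HSP90B1 then ran from 0.760 to 1.17 in OGDH KO -Glucose and from 0.676 to 1.14 in Ctrl. Fragments in exons shared with another gene were not counted, and such overlaps touched 5 of the 10 genes. The largest single overlaps took 9.85% of the exon bases of HSP90B1 (C12orf73), 9.78% of DNAJB11 (TBCCD1), 9.77% of HYOU1 (ENSG00000255114), 5.28% of SIL1 (MATR3) and 1.35% of DNAJC10 (RPL31P15). DNAJB11 had further overlaps of 6.73% (HRG-AS1) and 4.81% (ENSG00000283149), SIL1 of 3.75% (ENSG00000249593) and 2.97% (SNHG4), and HSP90B1 2 of at most 1.0%.

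The second comparison concerned the response to glucose withdrawal in OGDH KO cells. Of the 10 genes, 0 passed the edgeR test, in a comparison in which edgeR called 7.18% of all tested genes in either direction. An unadjusted p under 0.05 was found for 3 genes (HSPA5, DNAJB9 and MANF), and 3 were called by DESeq2. The 7.18% holds for the edgeR call only, and the share of all genes under an unadjusted p of 0.05 was not counted. The median log2 fold change of the 10 genes was 0.20, against 0.020 over all genes. HSPA5 stood at 852, 826 and 787 CPM in OGDH KO -Glucose, against 693, 681 and 682 CPM in OGDH KO. The starved libraries were all higher, by a log2 fold change of 0.26 (SE 0.09, 95% interval 0.05 to 0.47, adjusted p = 0.12). DNAJB9 stood at 18.9, 17.04 and 23.3 CPM in OGDH KO -Glucose and at 12.6, 12.6 and 14.97 CPM in OGDH KO, a log2 fold change of 0.56 (SE 0.15, adjusted p = 0.052). This was the value closest to the threshold, which it passed under 9 of 22 other settings, DESeq2 among them. Of these 9, 3 left out a library outside the comparison, at an adjusted p of 0.044 without Ctrl -Glucose replicate 3, 0.048 without Ctrl replicate 1 and 0.029 without Ctrl replicate 2. MANF stood at 99.3, 105 and 102 CPM in OGDH KO -Glucose and at 82.9, 85.8 and 91.4 CPM in OGDH KO, a log2 fold change of 0.23 (SE 0.08, adjusted p = 0.11). The other 7 genes lay between -0.33 and 0.39, with intervals that included 0. The starved libraries all lay above those with glucose for 6 of the 10 genes (HSPA5, DNAJB9, DNAJB11, DNAJC10, HSP90B1 and MANF). HYOU1 was the only one of the 10 whose starved libraries were all below those with glucose. It was at 290, 305 and 302 CPM in OGDH KO -Glucose and at 318, 341 and 311 CPM in OGDH KO (-0.11, SE 0.08, adjusted p = 0.41). The share of all tested genes whose libraries separate in either direction was not counted here.

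Loss of OGDH with glucose present asked whether the set differs in fed cells. Again 0 of 10 genes passed the edgeR test, in a comparison in which edgeR called 3.04% of all tested genes in either direction. An unadjusted p under 0.05 was found for 3 genes (DNAJB11, MANF and HSPA5), and 2 were called by DESeq2. The 3.04% holds for the edgeR call only, and the share of all genes under an unadjusted p of 0.05 was not counted. The median log2 fold change of the 10 genes was -0.15, against -0.014 over all genes. DNAJB11 stood at 31.0, 32.4 and 31.3 CPM in OGDH KO, against 39.3, 40.2 and 38.8 CPM in Ctrl. The OGDH KO libraries were all lower, by -0.32 on the log2 scale (SE 0.08, adjusted p = 0.064). MANF stood at -0.26 (SE 0.08, adjusted p = 0.13) and HSPA5 at -0.22 (SE 0.09, adjusted p = 0.27), both also with all OGDH KO libraries below all Ctrl libraries. HSP90B1 had the largest negative value, -0.42 (SE 0.19, adjusted p = 0.32), with 479, 469 and 481 CPM in OGDH KO against 538, 813 and 553 CPM in Ctrl. The OGDH KO libraries lay below the Ctrl libraries for 5 of the 10 genes (HSPA5, HYOU1, DNAJB11, HSP90B1 and MANF) and above them for SIL1. The share of all tested genes whose libraries separate in this way was not counted, so these separations have no background beside them. SIL1 had the largest positive value, 0.34 (SE 0.17, adjusted p = 0.36), with 21.0, 20.6 and 21.5 CPM in OGDH KO against 18.1, 13.9 and 17.999 CPM in Ctrl.

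Loss of OGDH without glucose set the 2 starved groups side by side. In OGDH KO -Glucose 9 of 10 genes were lower than in Ctrl -Glucose, in a comparison in which 28.7% of all tested genes passed in either direction and 2779 of 18526 were lower. The median log2 fold change was -2.20, against 0.004 over all genes. This comparison shares the Ctrl -Glucose libraries with the starvation of control cells, so both carry any deviation of those libraries. HSPA5 was at 852, 826 and 787 CPM in OGDH KO -Glucose and at 11307, 10839 and 12190 CPM in Ctrl -Glucose, a log2 fold change of -3.80 (SE 0.11, adjusted p = 8.4e-09). HSP90B1 was at 533, 585 and 757 CPM in OGDH KO -Glucose and at 2961, 2902 and 2094 CPM in Ctrl -Glucose (-2.09, SE 0.20). The 2 groups were widely separated in both genes. Among the co-chaperones the values ran from -2.59 (SE 0.09) in HYOU1 and -2.54 (SE 0.16) in DNAJB9 through DNAJC3 at -2.26 and DNAJB11 at -2.13 to DNAJC10 at -0.98 (SE 0.18, adjusted p = 0.0021). MANF was at -2.04 (SE 0.08) and SDF2L1 at -2.82 (SE 0.48). The SDF2L1 value was -2.21 without Ctrl -Glucose replicate 3 and -1.95 without the 3 most deviant libraries, and it passed in both fits. SIL1 was the gene not called, with 26.6, 22.4 and 17.8 CPM in OGDH KO -Glucose against 26.3, 24.3 and 33.2 CPM in Ctrl -Glucose, groups that overlapped (-0.33, SE 0.17, 95% interval -0.69 to 0.04, adjusted p = 0.17). With a GC offset it was called lower (-0.38, adjusted p = 0.0017).

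The interaction asked whether the starvation response itself differs between OGDH KO and control cells. It was negative for all 10 genes and passed the edgeR test for 8 of them, in a comparison in which 17.3% of all tested genes passed in either direction and 1659 of 18526 had a negative difference. The response of HSPA5 was 0.26 in OGDH KO cells and 3.84 in control cells on the log2 scale, a difference of -3.58 (SE 0.14, adjusted p = 3.2e-07). For DNAJB9 the response was 0.56 in OGDH KO cells and 3.31 in control cells (difference -2.75, SE 0.22), and for HYOU1 it was -0.11 in OGDH KO cells and 2.39 in control cells (difference -2.50, SE 0.12). For SDF2L1 the difference of -2.86 (adjusted p = 0.012) was -2.25 without Ctrl -Glucose replicate 3 and -1.66 without the 3 most deviant libraries, and it passed in both fits. The median difference was -2.04, against 0.014 over all genes. DNAJC10, with a difference of -0.77 (SE 0.26, adjusted p = 0.063), and SIL1, with -0.66 (SE 0.24, adjusted p = 0.080), did not pass. DNAJC10 passed under 7 of 21 other settings, among them the fits without OGDH KO -Glucose replicate 3 (-0.88, adjusted p = 0.036), without Ctrl -Glucose replicate 3 (-0.92, adjusted p = 0.022) and without Ctrl replicate 2 (-0.97, adjusted p = 0.013). SIL1 passed under 2 of 21, a GC offset (-0.61, adjusted p = 0.0012) and without OGDH KO -Glucose replicate 1 (-0.81, adjusted p = 0.040).

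**Figure D3:**
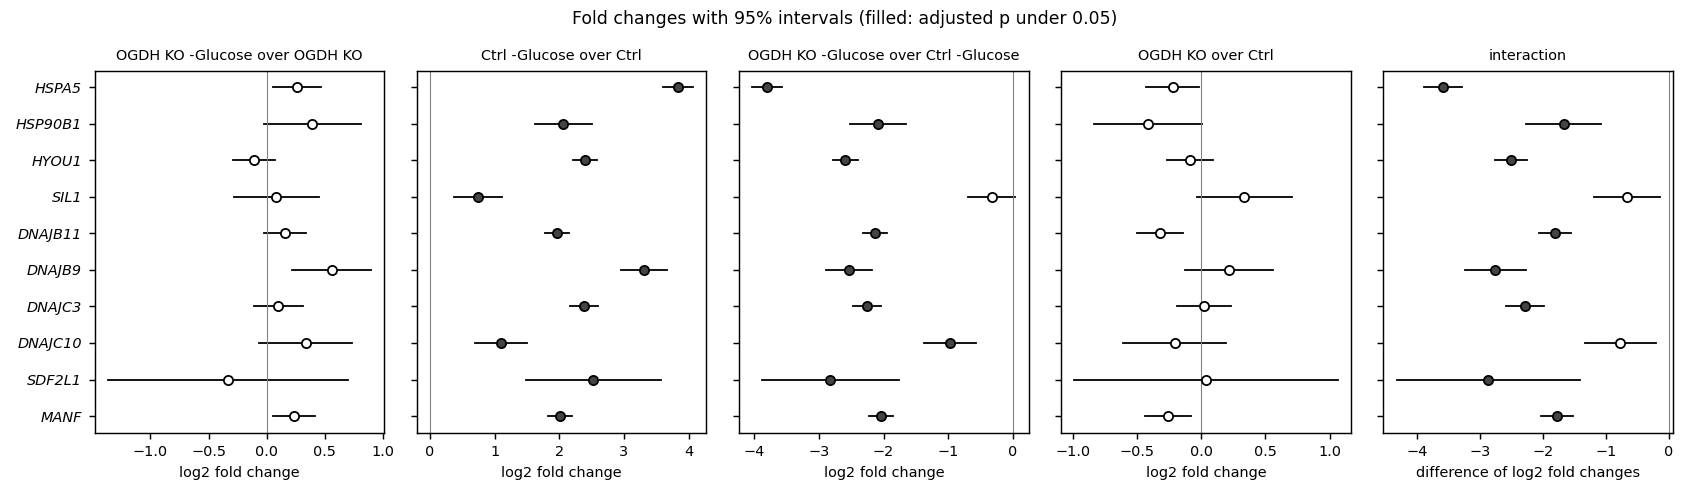
Log2 fold changes of the 10 genes with 95% intervals in the 4 comparisons and, at the right, the interaction, each panel on its own horizontal scale with a grey line at 0. Filled points passed the edgeR test at an adjusted p under 0.05, which holds for 0, 10, 9, 0 and 8 genes from left to right.

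Replicate scatter was unequal across the 10 genes, and in some libraries genes of high and low GC content deviated in opposite directions. SDF2L1 has the highest transcript GC content of the 10 (66.1%) and DNAJC10 the lowest (37.5%). In Ctrl -Glucose replicate 3, SDF2L1 lay 0.91 above its group mean on the log2 scale, while HSP90B1 (42.4% GC) lay at -0.32 and DNAJC10 at -0.33. In Ctrl replicate 2, SDF2L1 lay at -0.87, while HSP90B1 lay 0.38 and DNAJC10 0.36 above their means. Opposite deviations were also present in other libraries, such as OGDH KO -Glucose replicate 1 (SDF2L1 0.69, DNAJC10 -0.16) and replicate 3 (SDF2L1 -0.70, DNAJC10 0.25). The 3 OGDH KO libraries with glucose spread less, with SDF2L1 between -0.24 and 0.20, and in replicates 2 and 3 of that group both genes deviated in the same direction. With a GC offset, chosen after seeing these deviations, the log2 fold change of SDF2L1 on starvation of control cells was 2.77 (adjusted p = 5.8e-06), and without the 3 most deviant libraries it was 1.59 (adjusted p = 3.8e-05), in place of 2.53. Without Ctrl -Glucose replicate 3 alone it was 1.92 (adjusted p = 0.0037). HSPA5 (46.0% GC), HYOU1 (55.2%) and MANF (50.9%) lie in the middle of the range.

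**Figure D4:**
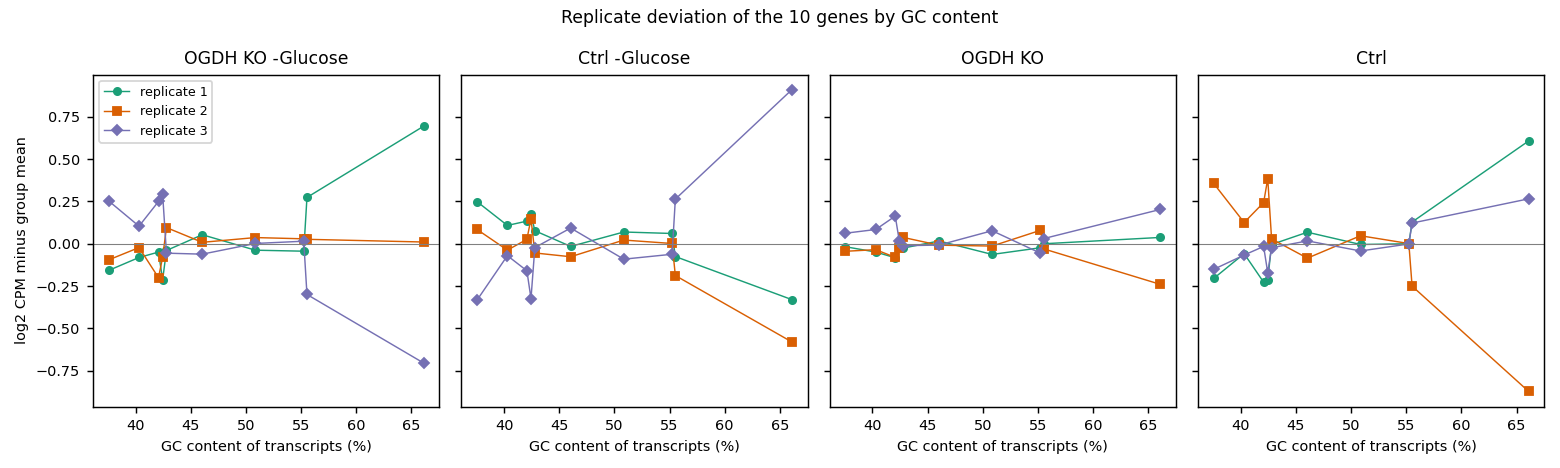
Deviation of each of the 10 genes from its group mean (log2 CPM) against the GC content of its transcripts in percent, with 1 line per replicate in each group. The genes at the 2 ends of the GC range, DNAJC10 at 37.5% and SDF2L1 at 66.1%, deviate in opposite directions in Ctrl replicate 2 and Ctrl -Glucose replicate 3. They also do so in other libraries, among them OGDH KO -Glucose replicates 1 and 3.

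Other gene lists place the set among its neighbours, beside an all-gene median of -0.023 for starvation of control cells. In that comparison 34.5% of all tested genes passed in either direction, with 3151 of 18526 higher and 3249 lower. In starved control cells the other ER folding enzymes and lectin chaperones had 14 of 16 higher and 0 lower (median log2 fold change 1.10), the unfolded protein response sensors and factors 8 of 14 higher and 0 lower (0.86), and the cytosolic and mitochondrial relatives 13 of 17 higher and 1 lower (1.12). The other ER J-proteins, HSP70-like and partner proteins had 6 of 16 higher and 2 lower (0.27). Of this last list, CRELD2, an ER protein with epidermal growth factor-like domains, rose by 2.51 (SE 0.19), FICD, the enzyme that adds AMP to HSPA5, by 2.22 (SE 0.13) and HSPA13, an HSP70 relative of the microsomes, by 1.06 (SE 0.11). The paralogs of SDF2L1 and MANF were not called. SDF2, the paralog of SDF2L1, stood at -0.47 (SE 0.26, adjusted p = 0.19) and CDNF, the paralog of MANF, at 0.51 (SE 0.26, adjusted p = 0.15) with 1.79 ± 0.476 CPM in Ctrl -Glucose and 1.24 ± 0.359 CPM in Ctrl. The paralog SDF2 was at 18.9 ± 5.67 CPM in Ctrl -Glucose and 26.2 ± 7.85 CPM in Ctrl.

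In starved OGDH KO cells, where 7.18% of all tested genes passed in either direction, the ER lists had 0 or 1 call each, which is near that share. The other ER folding enzymes had 0 of 16 called (median 0.021), the unfolded protein response list 0 of 14 (0.086) and the other J-proteins 0 higher and 1 lower, CNPY2, of 16 (0.005). The cytosolic and mitochondrial relatives had 6 of 17 higher (median 0.29), with HSPA1A, the stress-induced cytosolic HSP70, at 3.01 (SE 0.19) and DNAJB1, its J-protein, at 2.19 (SE 0.15). HSPA1A stood at 7.73 ± 0.188 CPM in OGDH KO -Glucose and 0.959 ± 0.134 CPM in OGDH KO. These levels are uncertain because HSPA1B is near-identical, and how fragments that match both were treated was not examined. Within the HSP90 family, HSP90B1 stood at 0.39 (adjusted p = 0.24) in starved OGDH KO cells while cytosolic HSP90AA1 rose by 0.58 (SE 0.13, adjusted p = 0.023). In starved control cells HSP90B1 rose by 2.06, HSP90AA1 by 1.18 and HSP90AB1 by 0.51, and mitochondrial TRAP1 stood at 0.06 (adjusted p = 0.77). Within the HSP70 family, starvation of control cells raised cytosolic HSPA1A by 5.72, HSPA5 by 3.84, cytosolic HSPA8 by 1.17 and mitochondrial HSPA9 by 1.12 on the log2 scale, HSPA1A standing at 42.8 ± 7.47 CPM in Ctrl -Glucose and 0.809 ± 0.208 CPM in Ctrl. Named after their values were seen, HSPA1B rose by 5.88, which like HSPA1A is a larger change than that of HSPA5, and HSPA2 rose by 2.89.

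**Figure D5:**
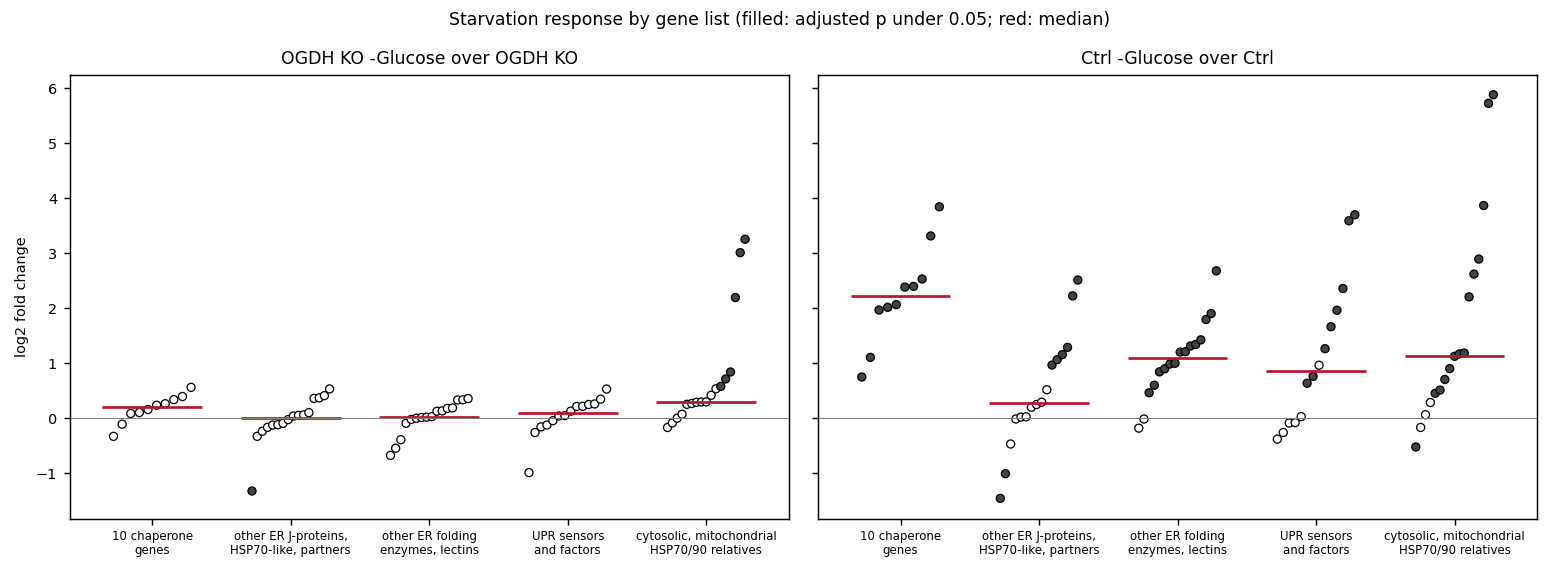
Log2 fold changes on starvation for the 10 chaperone genes and 4 other lists in OGDH KO cells (left) and control cells (right), 1 point per gene, filled where the adjusted p was under 0.05, with the list median as a red line. The medians of the 10 genes are 0.20 in OGDH KO cells and 2.22 in control cells.

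The transcripts of the regulators followed different patterns. XBP1 was at 72.8 ± 1.30 CPM in OGDH KO -Glucose, 233 ± 10.5 CPM in Ctrl -Glucose, 87.4 ± 1.85 CPM in OGDH KO and 59.9 ± 2.30 CPM in Ctrl (SD, n = 3 each). It rose by 1.96 in starved control cells and was higher in OGDH KO than in Ctrl with glucose present (0.55, SE 0.08, adjusted p = 0.0041), the comparison in which 0 of the 10 chaperone genes passed. Counts per gene do not show the splicing that activates XBP1. ATF6 rose by 0.76 in starved control cells (SE 0.14, adjusted p = 0.0017), and its interaction did not pass (-0.42, SE 0.20, adjusted p = 0.19). ATF4 rose by 0.63 (SE 0.14) and DDIT3, which it induces, by 3.70 (SE 0.17). In starved OGDH KO cells XBP1 stood at -0.26, ATF6 at 0.34, ATF4 at -0.13 and DDIT3 at 0.53, and 0 of the 4 passed. Between the starved groups, OGDH KO -Glucose was lower than Ctrl -Glucose for XBP1 (-1.68, edgeR adjusted p = 1.9e-07) and DDIT3 (-2.98, adjusted p = 4.6e-07). In that comparison ATF6 (-0.36, adjusted p = 0.082) and ATF4 (-0.27, adjusted p = 0.18) did not pass.

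The median profile of the 10 genes, in log2 CPM centred over the 12 libraries, was compared with every other tested gene by the root mean square (RMS) difference. The 5 genes outside the set with the smallest difference were TRIML2 (0.101), SEL1L (0.122), SFN (0.140), ZNF703 (0.143) and ABCA1 (0.148). SEL1L, the adaptor of the HRD1 ubiquitin ligase in ER-associated degradation, was at 60.5 ± 4.12 CPM in OGDH KO -Glucose, 235 ± 20.9 CPM in Ctrl -Glucose, 53.9 ± 1.15 CPM in OGDH KO and 57.4 ± 6.16 CPM in Ctrl. TRIML2 was at 41.4 ± 1.90 CPM in OGDH KO -Glucose, 191 ± 5.87 CPM in Ctrl -Glucose, 36.3 ± 2.13 CPM in OGDH KO and 36.7 ± 0.587 CPM in Ctrl. Of the set itself, MANF (0.0763), DNAJC3 (0.0965) and DNAJB11 (0.0988) lay closest to the median profile, and SIL1 (0.802) and HSPA5 (0.728) farthest from it, SIL1 with the smallest and HSPA5 with the largest starvation response in control cells. This likeness is a description over 12 libraries and was not tested.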

How the data were processed

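RNA sequencing counts of 12 A375 libraries were used, grouped by sample title. Per the file headers, the authors ran featureCounts 2.0.1 and deposited unnormalized counts: fragments were paired, summed over exons under each gene symbol, without strand, and left out where they overlapped several genes. The submitters' processing notes name Subread and hg38. No source used here gives the aligner.

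The filterByExpr function (counts of 10 and a total of 15 as minimums) left 18526 names with 99.9% of counts. CPM are relative to TMM-scaled library sizes, except for the cell type markers, where total counts were used unscaled. Differences were tested with edgeR 4.0.16 (R 4.3.3), by quasi-likelihood in 1 model of 4 group means, for 5 comparisons. P-values were adjusted by Benjamini-Hochberg over all tested genes. Alternatives were RLE and upper-quartile scaling, DESeq2 1.42.0, other filters, only the groups compared, a replicate block, a test against 1.5-fold, each library left out, the 3 most deviant libraries left out, and, chosen after seeing the data, a GC offset. The test was tried on simulated counts. Exon overlaps came from the exon coordinates deposited with the counts. GC content and principal transcript lengths (the shortest where a gene had several) came from GENCODE (GRCh38), and promoters from RefSeq.

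The members, the gene lists and the alternatives were chosen with earlier results of these data known. Genes named were the 10 members, OGDH, at most 3 called genes per list with the smallest p, fixed relatives and regulators, and the 5 genes most alike. Same-numbered replicates did not deviate together in every pair (correlations -0.687 to 0.638), so replicate numbers were not treated as pairs.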

Additional observations from a re-analysis of the deposited data

Results flagged for a closer look

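For 8 of the 10 genes the starvation response differed between OGDH KO and control cells by the interaction test of edgeR, in which 17.3% of all tested genes passed in either direction. The response in OGDH KO cells minus that in control cells, on the log2 scale, was -3.58 for HSPA5, -2.50 for HYOU1, -2.75 for DNAJB9, -1.81 for DNAJB11, -2.28 for DNAJC3, -2.86 for SDF2L1, -1.67 for HSP90B1 and -1.78 for MANF. The SDF2L1 value was -2.25 without Ctrl -Glucose replicate 3 and -1.66 without the 3 most deviant libraries. Groups of 3 libraries are too small for a test of single deviating libraries.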

How the results depend on the processing

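Of the 10 genes, 10 rose on starvation of control cells under every alternative except the test against a 1.5-fold change, where 9 did, and 8 to 10 were lower in OGDH KO -Glucose than in Ctrl -Glucose. The interaction called 8 to 10. On starvation of OGDH KO cells, where 0 members passed, 1 passed with RLE size factors, with no filter on low counts and with only the groups compared, 3 with DESeq2, without the 3 most deviant libraries and with the GC offset, and 0 to 1 when a library was left out. For OGDH KO with glucose, where 0 members passed, 1 passed with upper-quartile scaling and with the stricter filter, 2 with DESeq2 and with the GC offset (1 higher and 1 lower), and 3 without the 3 libraries.

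Among all genes, the counts past the threshold were 6400 for starvation of control cells, 1330 for starvation of OGDH KO cells, 563 for OGDH KO with glucose, 5310 without glucose and 3196 for the interaction. Against a 1.5-fold change they were 2287, 220, 28, 1653 and 1080, and without the 3 libraries 11364, 3313, 2021, 9874 and 8077, in the same order. Starvation of OGDH KO cells gave 2031 with DESeq2 and 583 to 1959 with a library left out, and OGDH KO with glucose gave 1172 with DESeq2, 215 with only the groups compared, 1469 with the GC offset and 172 to 632 with a library left out. With the GC offset 45.0% of the calls for starvation of OGDH KO cells were higher, against 33.7%. The cause of these shifts was not tested. With the replicate number as a block, OGDH KO with glucose gave 342 genes, and the counts of the 10 genes were the same in all 5 comparisons.

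Over 50 single gene values and 1090 alternatives of them, 0 reversed a call, 34 newly passed the threshold and 2 no longer did, both against a 1.5-fold change (SIL1 on starvation of control cells and DNAJC10 in OGDH KO without glucose). The least counted of the 10 in libraries with glucose were SDF2L1 (97 to 299 counts), DNAJB9 (246 to 401) and SIL1 (321 to 575), and the part of depth in their spread was not tested.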
